A study of Mus musculus with 11 samples.

Results

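Resting splenic B cells were compared between NOD and NR4 mice after 2 h of culture in medium with no stimulus. The comparison used 6 of the 11 Affymetrix whole-genome mouse arrays of the series, 3 of NOD and 3 of NR4, and all 45037 probe sets of the array that were not among its 64 controls. A probe set is a group of short oligonucleotides that together report 1 transcript or part of it, and 1 gene can have several. The NOD animals were NOD/ShiLtJ and the NR4 animals NOD.NOR-Chr4/DvsJ, all female and aged 6 weeks. Spleens were pooled in 3 lots of 7 to 8 for each strain, and B cells were left untouched while other cells were removed with magnetic beads, so an array measures a pool and not an animal. The other 5 arrays hold cells of the same strains after 2 h with 10 µg/ml of anti-IgM, 2 of NOD and 3 of NR4, and entered only the estimate of the spread.

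NOD mice develop autoimmune diabetes spontaneously, and B cells contribute to the disease as cells that present islet antigens to T cells. NR4 is a congenic strain that carries part of chromosome 4 of the diabetes-resistant NOR strain on the NOD background. That part holds the diabetes susceptibility regions Idd9 and Idd11, and where the exchanged segment begins and ends was not analysed here. A resting B cell keeps its antigen receptor complex, its coreceptors and its adhesion molecules at the surface and does not divide. The question the comparison addresses is which transcripts already differ between the strains before the antigen receptor is engaged.

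Signals are on a log scale, taken as log2, from which the median of the 11 arrays has been subtracted for every probe set. A value of 0 is thus that median and not absence of signal, and levels cannot be compared between probe sets or read as detection. The SD of the centred values over probe sets was 0.171 to 0.299 in the 6 unstimulated arrays and lowest in replicate 2 of both strains. The 3' minus 5' difference of the centred actin and Gapdh control probe sets was -0.079 to 0.289 in these arrays and highest in NR4 replicate 3. Being centred, it compares RNA integrity between arrays and does not measure it in any of them. Because each value is centred, the labelled cell type could not be checked against marker levels, only against marker differences, which are given with the marker lists further on. In such bulk samples a smaller number of cells of a type and less RNA per cell cannot be told apart.

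Between resting NOD and NR4 B cells, 26 of the 45037 probe sets differed (0.0577%, limma, Benjamini-Hochberg adjusted p below 0.05), and those are called here. Of these, 11 were higher in NOD (0.0244% of all tested) and 15 were lower (0.0333%). They named 17 genes through 18 probe sets, while 7 probe sets had no gene symbol in the platform annotation and 1 had several. The 3 NOD and the 3 NR4 arrays did not overlap in any of the 26, and 25 of the 26 differed by at least 2-fold. Over all probe sets, the arrays did not overlap with NOD higher in 3.64% and with NOD lower in 2.71%. The median size of the difference over all probe sets was 0.087 log2 units, against a median 95% half-width of 0.378, so a difference of that size was not detectable with 3 arrays a strain. At an unadjusted p below 0.05 there were 688 probe sets, and 1528 with the replicate number as a block, against the 2252 that independent tests with no difference would give. The count fell to 15 without NOD replicate 1, to 14 without NOD replicate 2, to 14 without NR4 replicate 2 and to 17 when only the 6 unstimulated arrays were fitted, which were 16 of the 26 and 1 other. In each of these fits all 26 kept their direction, which the lack of overlap fixes in advance. Of the 26, 12 were called in all 13 probe set alternatives, among them those of Zfp979, Icam2, Padi2, Cenps, Cep85, Srgap3, Ccdc28b and Nsd1.

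**Figure D1:**
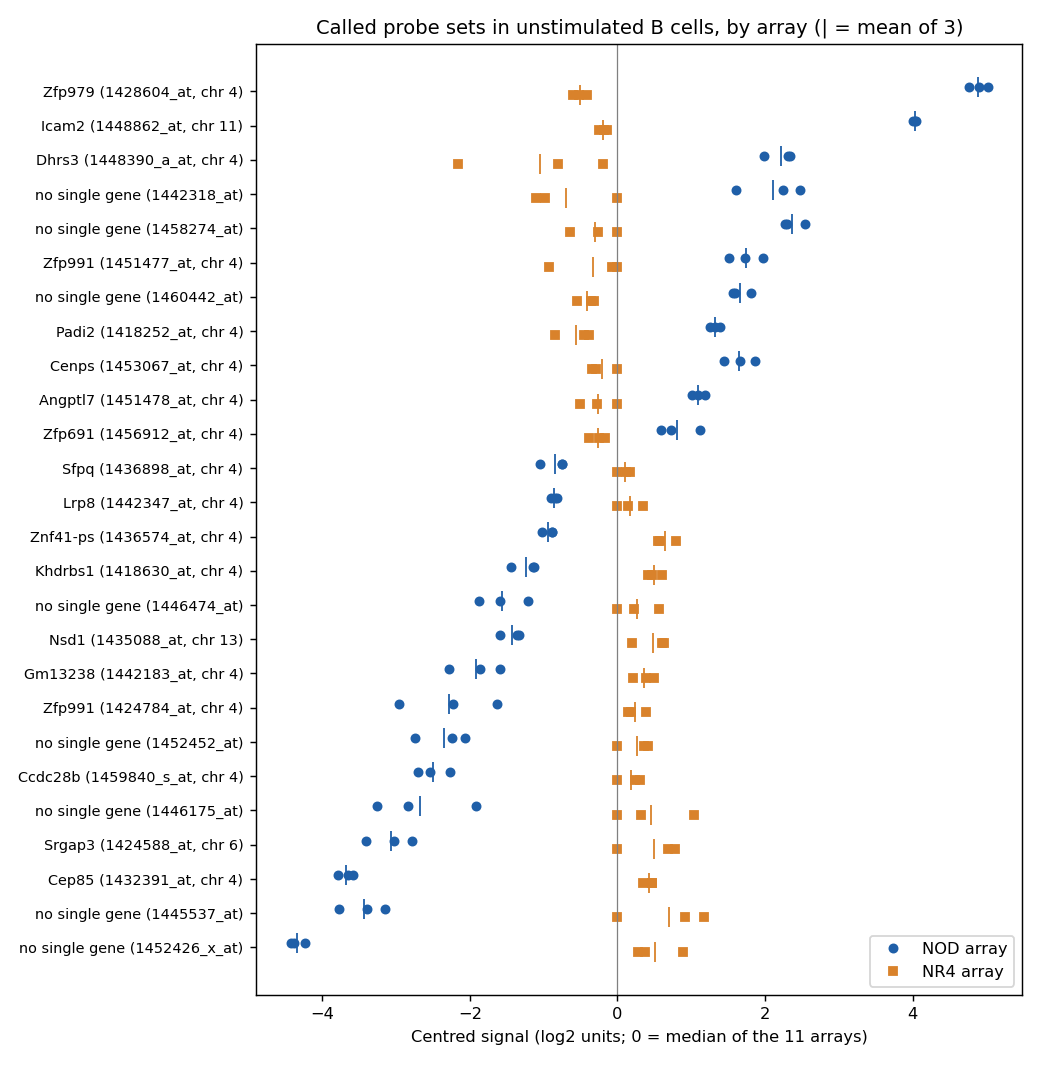
Centred signal (log2 units) of the 26 called probe sets in each unstimulated array, with NOD as circles, NR4 as squares and the mean of 3 arrays as a short vertical line. The 2 strains lie apart in each row, most widely for Zfp979 and for 1452426_x_at, which has no gene symbol.

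The largest difference was that of Zfp979, one of a cluster of KRAB zinc finger genes on distal chromosome 4. Proteins of this family bind DNA through arrays of zinc fingers and recruit repressors, many of them at retroviral repeats. To show a stretch that neighbouring genes of this cluster have in common, the reference promoters of Zfp979 and Zfp982 are given, from 250 bases before to 50 bases after the start, with the longest stretch they share in capitals. They come from RefSeq on assembly GRCm38.p6, which is the C57BL/6J sequence and not that of NOD or NOR, at chr4:147642459-147642758 on the minus strand for Zfp979 and chr4:147492167-147492466 on the plus strand for the second of the 3 starts of Zfp982, the most alike of them.
Zfp979: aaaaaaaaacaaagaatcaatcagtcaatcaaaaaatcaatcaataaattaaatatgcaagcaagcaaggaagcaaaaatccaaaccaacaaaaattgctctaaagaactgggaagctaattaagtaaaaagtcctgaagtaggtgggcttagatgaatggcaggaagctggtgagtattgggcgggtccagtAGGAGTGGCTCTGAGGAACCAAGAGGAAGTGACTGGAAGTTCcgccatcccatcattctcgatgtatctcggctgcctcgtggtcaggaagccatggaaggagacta
Zfp982: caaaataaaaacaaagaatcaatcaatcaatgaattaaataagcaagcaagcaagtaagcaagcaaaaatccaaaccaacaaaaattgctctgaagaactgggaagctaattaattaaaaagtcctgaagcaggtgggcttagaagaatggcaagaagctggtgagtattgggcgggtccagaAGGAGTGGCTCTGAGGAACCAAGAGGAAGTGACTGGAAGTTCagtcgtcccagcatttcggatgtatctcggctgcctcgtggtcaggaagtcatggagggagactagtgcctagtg
The 2 windows had 269 identical bases, 14 mismatches and 34 gap positions, an identity of 95.1% over the aligned bases and of 84.9% over the whole alignment. The shared stretch is 42 bases long and was held by 4 of the 32851 promoter windows of the table (0.0122%), those of Rex2, Zfp600, Zfp979 and Zfp982. The windows at the other 2 starts of Zfp982 were less like that of Zfp979, with an identity of 69.8% and 71.4% over the aligned bases. The probes and transcripts of the cluster were not compared here. Genes of a multigene family can share probes, and each signal of the cluster is uncertain as to its gene.

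Zfp979 (1428604_at) gave signals of 4.76, 5.02 and 4.90 in NOD replicates 1 to 3 and of -0.60, -0.52 and -0.41 in NR4 replicates 1 to 3, the order kept for all values that follow. The groups lay far apart with little spread inside either, and NOD was higher by 5.40 log2 units (SE 0.15, n = 3 a strain, limma adjusted p = 1.9e-07), which is 42.3-fold. The pseudogene Gm13238 (1442183_at) read -2.28, -1.86 and -1.60 in NOD and 0.39, 0.49 and 0.21 in NR4. The difference was -2.27 (SE 0.25, limma adjusted p = 0.011). Znf41-ps (1436574_at), also a transcribed pseudogene, read -1.03, -0.89 and -0.89 in NOD and 0.57, 0.80 and 0.55 in NR4. Its difference was -1.58 (SE 0.17, limma adjusted p = 0.0090). Leaving out NOD replicate 1, NOD replicate 2 or NR4 replicate 2 ended the call of both pseudogenes, as did NR4 replicate 1 for Gm13238, with adjusted p up to 0.0842 and 0.0697.

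Zfp991, a further zinc finger gene of the cluster, had 2 called probe sets of opposite direction. Probe set 1451477_at read 1.52, 1.97 and 1.73 in NOD and 0, -0.07 and -0.93 in NR4, a difference of 2.07 (SE 0.25, limma adjusted p = 0.018). Probe set 1424784_at read -2.96, -2.23 and -1.64 in NOD and 0.19, 0.39 and 0.15 in NR4, a difference of -2.52 (SE 0.31, limma adjusted p = 0.020). Each pair of groups was apart, so neither sign rests on overlapping arrays. A further probe set of the gene, 1440518_at, differed by 0.33 and was not called, and Zfp991 overlaps Zfp978 in the reference. The first of the 2 calls ended without any 1 of the 3 NOD arrays or NR4 replicate 2, and the second without NOD replicate 2 or any 1 of the 3 NR4 arrays, with adjusted p up to 0.117 and 0.157. No direction is therefore given for Zfp991 as a gene.

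Zfp982 itself was not called, although all 3 of its probe sets were above 0. Probe set 1436386_x_at, whose suffix marks probes that may also match other transcripts, read 1.51, 1.75 and 2.25 in NOD and -0.63, 0 and -0.43 in NR4. Its difference was 2.19 (SE 0.42, limma adjusted p = 0.38), and those of the gene's other probe sets were 1.19 and 0.47. Zfp980 differed by 0.46 and Rex2, which shares the promoter stretch, by 0.20, both with a limma adjusted p = 1. In all, 7 of the 32 listed genes of the cluster were measured, by 11 probe sets. Of these, 2 were called higher and 3 lower in NOD, with Zfp991 on both sides, against 0.0244% and 0.0333% of all probe sets.

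Among the other chromosome 4 genes that were higher in NOD, Dhrs3 had the largest difference. Dhrs3 reduces retinaldehyde to retinol and so limits the making of retinoic acid. Probe set 1448390_a_at read 2.35, 1.99 and 2.31 in NOD and -0.20, -0.80 and -2.16 in NR4, so the NOD arrays were close together and the NR4 arrays spread widely. The difference was 3.27 (SE 0.40, limma adjusted p = 0.023). The call was lost without any 1 of the 3 NOD arrays or NR4 replicate 2, with adjusted p up to 0.159, and the limma adjusted p was 0.358 with the 6 unstimulated arrays alone. Dhrs3 overlaps Vps13d in the reference, whose 4 probe sets differed by -0.21 to -0.50 and were not called. Of the 34 probe sets of retinoid enzymes and receptors, that of Dhrs3 was the 1 called, and Rdh5 and Rdh11, which also act on retinoids, differed by 0.25 and by 0.27, the latter by -0.0017 in its other probe set.

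Padi2 encodes a peptidylarginine deiminase, an enzyme that turns arginine in proteins into citrulline. It read 1.32, 1.40 and 1.25 in NOD and -0.46, -0.38 and -0.84 in NR4, well apart in each array. NOD was higher by 1.88 (SE 0.15, limma adjusted p = 0.00099), or 3.69-fold. The other 4 members of the family, which lie beside it, were each measured by 1 probe set and differed by 0.18 (Padi1), 0.03 (Padi4), 0.0057 (Padi3) and -0.07 (Padi6), none of them called.

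Cenps, which encodes a protein of the kinetochore and of DNA repair complexes, read 1.65, 1.44 and 1.86 in NOD and -0.35, 0 and -0.30 in NR4. It was higher in NOD by 1.87 (SE 0.15, limma adjusted p = 0.00095). It was the 1 called probe set of 93 in the cell cycle list, against 0.0577% of all probe sets. In 10 of the 93 (10.8%, against 3.64% of all probe sets) all NOD arrays lay above the NR4 arrays, and in 1 (1.08%, against 2.71%) below. Differences were above 0 in 66 of the 93 (71%, against 52.9% of all probe sets). Replication genes of that list gave 0.046 to 0.44 over 5 probe sets of Mcm3, 0.0078 to 0.26 over 3 of Mcm6 and 0.045 to 0.52 over 4 of Mcm7, all with a limma adjusted p = 1.

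Angptl7, a secreted angiopoietin-like protein gene, read 1.01, 1.19 and 1.09 in NOD and -0.28, 0 and -0.50 in NR4. The difference was 1.36 (SE 0.16, limma adjusted p = 0.018). It overlaps Mtor in the reference, whose 3 probe sets differed by -0.77, -0.28 and 0.09 and were not called. Its call remained without NR4 replicate 2 and ended without any 1 of the other 5 arrays, at adjusted p up to 0.117. Zfp691, a zinc finger gene outside the cluster, read 0.73, 0.59 and 1.12 in NOD and -0.39, -0.25 and -0.17 in NR4. Its difference was 1.08 (SE 0.15, limma adjusted p = 0.043), which no fit with 1 array left out kept (adjusted p 0.0806 to 0.268). With the replicate number as a block the limma adjusted p of Zfp691 was 0.0696, above the threshold of 0.05.

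The chromosome 4 genes that were lower in NOD were led by Cep85, which encodes a centrosomal protein. Probe set 1432391_at read -3.59, -3.79 and -3.65 in NOD and 0.47, 0.35 and 0.47 in NR4. The difference was -4.10 (SE 0.12, limma adjusted p = 1.9e-07), and the fit without any 1 array gave adjusted p of at most 6.02e-06. Ccdc28b, a coiled-coil protein gene linked to cilia, read -2.70, -2.54 and -2.27 in NOD and 0.31, 0.23 and 0 in NR4 with 1459840_s_at. It differed by -2.68 (SE 0.16, limma adjusted p = 0.00015). Both genes were apart between the strains by more than the whole range inside either strain.

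Khdrbs1 encodes Sam68, an RNA-binding protein that takes part in splicing and in signalling through Src family kinases. Probe set 1418630_at read -1.14, -1.13 and -1.45 in NOD and 0.42, 0.61 and 0.47 in NR4, a difference of -1.74 (SE 0.18, limma adjusted p = 0.0064). The call ended without NR4 replicate 2 (adjusted p 0.058). Sfpq, a splicing factor of nuclear paraspeckles, read -0.75, -0.75 and -1.05 in NOD and 0, 0.12 and 0.17 in NR4 with 1436898_at. It differed by -0.95 (SE 0.12, limma adjusted p = 0.028). Lrp8, a receptor for reelin and apolipoprotein E, read -0.82, -0.90 and -0.85 in NOD and 0, 0.34 and 0.14 in NR4 with 1442347_at. Its difference was -1.02 (SE 0.13, limma adjusted p = 0.028), with a limma adjusted p of 0.0583 under the replicate block. Neither Sfpq nor Lrp8 was called once any 1 of the 6 arrays was left out, with adjusted p of 0.0988 to 0.23 and of 0.0617 to 0.211.

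Outside chromosome 4, 3 of 32647 probe sets were called. Icam2, on chromosome 11, encodes an adhesion molecule of leukocytes and endothelium that binds the integrin LFA-1. Its only probe set, 1448862_at, read 4.04, 4.001 and 4.05 in NOD and -0.24, -0.15 and -0.18 in NR4. The spread inside each strain was small (SD 0.026 in NOD and 0.050 in NR4), and NOD was higher by 4.22 (SE 0.093, limma adjusted p = 3.5e-08), or 18.65-fold. This was the smallest p of the comparison. The other 42 probe sets of the adhesion list, which holds the partners of Icam2, were not called, with values from -0.28 for Tln1, which links integrins to actin, to 0.305 for Fermt3, an activator of integrins, whose 3 other probe sets gave -0.028 to 0.021.

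Srgap3, on chromosome 6, encodes a GTPase activator of the Slit and Robo pathway. Probe set 1424588_at read -3.41, -3.02 and -2.78 in NOD and 0.78, 0.69 and 0 in NR4, a difference of -3.56 (SE 0.26, limma adjusted p = 0.00052). Nsd1, on chromosome 13, encodes a histone lysine methyltransferase. Probe set 1435088_at read -1.60, -1.37 and -1.33 in NOD and 0.60, 0.63 and 0.20 in NR4, a difference of -1.91 (SE 0.16, limma adjusted p = 0.00099). In both genes the highest NOD array was below the lowest NR4 array.

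Of the 8 called probe sets without a single symbol, 5 were lower and 3 higher in NOD. The largest was 1452426_x_at, which read -4.43, -4.24 and -4.39 in NOD and 0.37, 0.27 and 0.88 in NR4, a difference of -4.86 (SE 0.16, limma adjusted p = 4.5e-07). Probe set 1445537_at differed by -4.14 (SE 0.29) and 1452452_at by -2.61 (SE 0.20), while 1446175_at differed by -3.12 and 1446474_at by -1.83. Of those higher in NOD, 1442318_at differed by 2.81, 1458274_at by 2.67 and 1460442_at, which the annotation gives to several genes, by 2.07. With 1 array left out in turn, 1446175_at was called in 5 of 6 fits, 1442318_at and 1446474_at in 2 of 6 each and 1458274_at in 0 of 6. The 7 probe sets with no symbol have no chromosome here, and the place of all 8 in the genome was not analysed.

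Most of the calls on genes with several probe sets rested on 1 of them. Of the 17 called genes, 8 had more than 1 probe set, and in 0 of the 8 were all of them called in the same direction. Khdrbs1 had 6 further probe sets with differences of -0.19 to -0.04, and Sfpq had 5 with differences of -0.13 to 0.06. The second probe set of Cep85 differed by -0.32 (SE 0.31), and that of Srgap3 by -0.73 (SE 0.19, unadjusted p = 0.0030). The 3 others of Ccdc28b differed by -0.25, -0.77 and -0.98, the 2 others of Lrp8 by -0.45 and -0.61, and the 3 others of Nsd1 by -0.50, -0.02 and -0.47. With that of Zfp991 these are 22 further probe sets, and none was called.

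**Figure D2:**
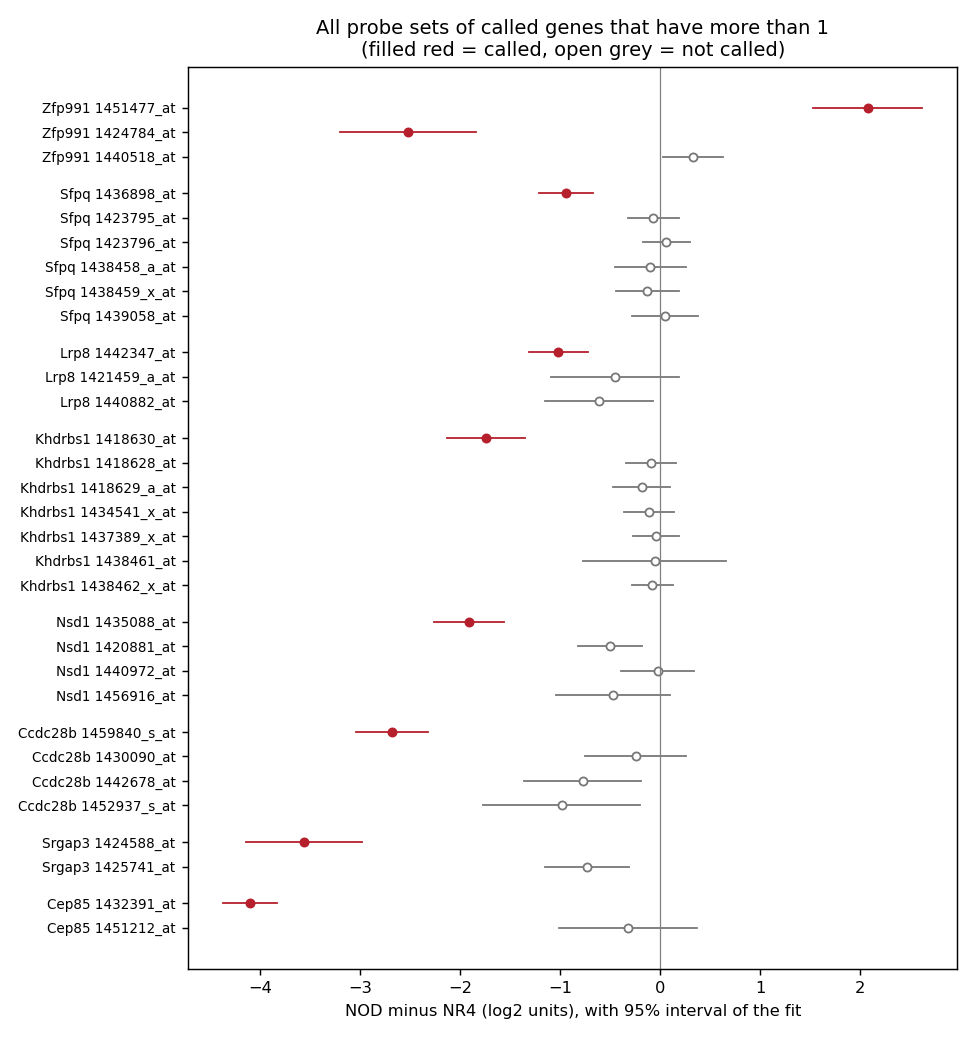
NOD minus NR4 (log2 units) of each probe set of the 8 called genes with more than 1, with the 95% interval of the fit. Filled red points are called and open grey points are not, and the open points of Khdrbs1 and Sfpq lie between -0.19 and 0.06.

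The remaining 9 called genes have 1 probe set each, so no second measurement of them exists on the array. The strains carry different DNA by design within the exchanged segment, and whether it differs under these probes was not analysed here. Where it does, a difference in transcript level and a difference in how well the probes bind cannot be told apart on these arrays. When each gene was given the median of its probe sets, 11 genes were called, 9 of them on chromosome 4. Khdrbs1 then differed by -0.11, Sfpq by -0.12, Nsd1 by -0.53 and Ccdc28b by -0.72, none of them called, while Cep85 (-2.21) and Srgap3 (-2.15) still were. Cep85 and Srgap3 have only 1 probe set besides the called one, so their median is the mean of both. Those were -4.10 and -0.32 for Cep85 and -3.56 and -0.73 for Srgap3, so these calls still draw on the called probe set.

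By position, 15 of the 2094 probe sets on chromosome 4 were called (0.716%), in 14 genes, against 0.00919% of those on all other chromosomes and 0.0777% of those with no chromosome. On chromosome 4, 7 were higher and 8 lower in NOD, and after quantile normalization of the values the split was 10 higher and 7 lower. The count on chromosome 4 was 8 with the 6 unstimulated arrays alone and 6 to 11 when 1 array was left out, at 7 without NOD replicate 1, 6 without NOD replicate 2, 9 without NOD replicate 3 and 6 without NR4 replicate 2. Among the 1087 measured genes in their order along the chromosome, the first called was Lrp8, at place 472, and the last Cenps, at place 978. The 471 genes before and the 109 after this stretch held no call. Both ends depended on the fit. Lrp8, Zfp691 and Sfpq were not called once any 1 array was left out, and the first of these calls kept in all such fits was Ccdc28b, at place 716. With the replicate block Lrp8 and Zfp691 were not called, and Kif1b, at place 980 and so beyond Cenps, was. Of the called probe sets, 9 in 8 genes lay in part 9 of the order when it is cut into 10 equal parts, which runs from Pla2g2a to Cenps and holds the zinc finger cluster, Padi2, Dhrs3 and Angptl7.

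Probe sets whose arrays did not overlap were also more frequent there. They made up 11.5% of chromosome 4 and 6.30% of the other chromosomes. Along chromosome 4 they were 3.66% to 7.88% in parts 1 to 4 of the gene order, 14.6% in part 5, 15.8% in part 7, 20.2% in part 8 and 22.5% in part 9. They were 8.74% in part 6 and 9.05% in part 10. Differences of at least 2-fold numbered 54 over the array, 26 of them on chromosome 4 (16 higher and 10 lower in NOD), 12 on other chromosomes (2 higher and 10 lower) and 16 without a chromosome.

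**Figure D3:**
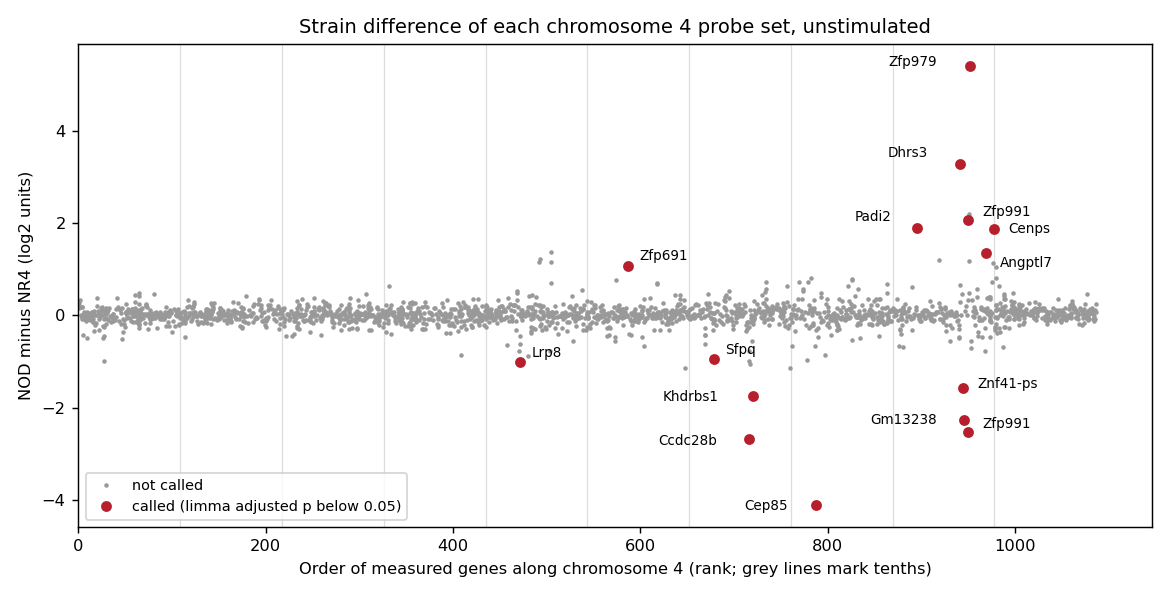
NOD minus NR4 (log2 units) of each chromosome 4 probe set against the rank of its gene along the chromosome, with grey lines between the 10 parts. The 15 called probe sets, in red, lie between Lrp8 at place 472 and Cenps at place 978, and the points spread more widely there than before Lrp8.

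The numbers of the replicates behaved as pairs, and with the number as a block 33 probe sets were called (0.0733%), 24 of the 26 and 9 further ones. Of the latter, 6 had 1 symbol. Higher in NOD were Dnajc16, a chaperone gene, by 1.20 (limma adjusted p with the block = 0.043) and Kif1b, a kinesin motor for organelles, by 1.05 (0.027), both on chromosome 4. Lower in NOD were Txlna, a syntaxin-binding protein, at -1.05 (0.042) and Stx12, an endosomal syntaxin, at -1.14 (0.025), also on chromosome 4. Rcan2, an inhibitor of calcineurin on chromosome 17, differed by -1.57 (0.0069), and Akr1e1, an aldo-keto reductase on chromosome 13, by -2.04 (0.025). Each rests on 1 probe set of its gene. The other probe sets gave 0.28 for Dnajc16, -0.19 to 0.82 for Kif1b (6 of them), -0.14 and 0.11 for Txlna, -0.066 for Stx12, 0.028 for Rcan2 and 0.066 for Akr1e1, and none of these was called with the block. Without the block the limma adjusted p of the 6 called probe sets was 0.067 for Txlna and 0.167 to 0.881 for the others.

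Several genes that were not called in either fit had arrays that did not overlap and differences near or above 1 log2 unit. On chromosome 4 these included Spata6, with 1.38 and 1.16 in 2 probe sets and 0.71 in a further one, Osbpl9 with 1.23, Nrd1 with 1.15 and Cort, a neuropeptide gene, with 1.14. Other probe sets of these genes differed less or not in the same direction. The remaining one of Spata6 gave -0.14 with overlapping arrays, and the 4 others of Osbpl9 gave 0.093, -0.24, -0.078 and 0.23. In the second probe set of Nrd1 the arrays overlapped, with means of -0.0076 in NOD and 0.046 in NR4. Elsewhere, Hsd11b1, the enzyme that regenerates active glucocorticoid, read -1.17, -1.17 and -0.79 in NOD and 0.24, 0.31 and 0 in NR4. Its difference was -1.23 (SE 0.19, limma adjusted p = 0.13). Stat4, a transcription factor downstream of cytokine receptors, differed by 0.68 (SE 0.13, limma adjusted p = 0.38), and its arrays did not overlap either.

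Gene lists for resting B cells were read by their counts and medians beside those of all probe sets, whose median difference was 0.00897 with 52.9% above 0. Of 20 lists, 14 held no called probe set (limma), with 35 of their 752 entries at an unadjusted p below 0.05 (4.65%, against 1.53% of all probe sets). The antigen receptor complex and its proximal signalling genes, which carry the first signal of the B cell, had a median of 0.0198 over 84 probe sets. The lowest was 1 of 6 probe sets of the kinase gene Pik3cd at -0.69, the others of which gave -0.014 to 0.16, and the highest of the list was 0.33, and 1 of the 84 had an unadjusted p below 0.05. The inhibitory receptors and phosphatases that dampen this signal had a median of 0.0165 over 52 probe sets. Among them Ubash3b, a phosphatase that acts on Syk, gave -0.76, -0.65 and -0.76 in its 3 probe sets, the smallest limma adjusted p being 0.19. Lair1, an inhibitory collagen receptor, gave -0.53 and -0.33 in 2 of its 3 probe sets, and the arrays of these 5 probe sets did not overlap. They are all of the list with the NOD arrays below (9.62%, against 2.71% of all probe sets). In 2 others the NOD arrays lay above (3.85%, against 3.64%).

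Interferon-stimulated genes, which report signalling by type I interferon, had a median of -0.118 over 58 probe sets of 38 genes, and 18 of the 58 were above 0. None was called by limma and 5 had an unadjusted p below 0.05. In 13 of the 58 (22.4%) the NOD arrays all lay below the NR4 arrays, against 2.71% of all probe sets, and in 0 of the 58 did they all lie above. The antiviral enzyme gene Oasl2 read -0.75, -0.90 and -1.03 in NOD and 0.53, 0.32 and 0.34 in NR4, a difference of -1.29 (SE 0.38, limma adjusted p = 1). Usp18, which limits interferon receptor signalling, differed by -1.10, Mx1 by -0.83, Rsad2 by -1.03, -0.60 and -0.014 in 3 probe sets and the kinase gene Eif2ak2 by -0.70, -0.39 and -0.27. Genes of this kind are known to be induced together, so the probe sets of the list are not independent measurements.

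Immediate-early transcription factors, which are induced within minutes of stimulation, had a median of 0.147 over 41 probe sets, with 34 above 0 and none called by limma (1 at an unadjusted p below 0.05, Nr4a3 at 0.30). The other probe sets of Nr4a3 gave 0.16 and 0.0375, with overlapping arrays. Fos differed by 0.22 and Ier2 by 0.29, with overlapping arrays in both. STAT factors and their feedback regulators had a median of 0.0639 over 57 probe sets, and the arrays did not overlap in 5, all with NOD higher (8.77%, against 3.64% of all probe sets). B cell fate transcription factors had a median of -0.00239 over 94. In 14 of them (14.9%, against 2.71% of all probe sets) the NOD arrays lay below the NR4 arrays, and in 4 (4.26%, against 3.64%) they lay above. Of the 14, 5 were probe sets of Bcl11a, a factor of early B cell development, whose 7 probe sets gave -0.51 to -0.31, each with a limma adjusted p = 1.

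Genes that place and keep resting B cells in the spleen were not called either. Of the 44 probe sets of migration receptors and their regulators, 5 had all NOD arrays above all NR4 arrays (11.4%, against 3.64% of all probe sets) and 0 the reverse, with a median of 0.0126. They included Rgs1, which dampens chemokine receptor signals, at 0.59 (SE 0.17), Gpr183, an oxysterol receptor that guides B cells in the follicle, at 0.38 (SE 0.13), and the chemokine receptor genes Ccr7 and Ccr6 at 0.33 and 0.36, each with a limma adjusted p = 1. The second probe set of Gpr183 overlapped between the strains. Cnr2 had the largest difference of the list, 0.63 (SE 0.27), with overlapping arrays. The BCL2 family, which sets the threshold for cell death, had a median of 0.0321 over 48 probe sets. In 5 of the 48 (10.4%, against 3.64% of all probe sets) all NOD arrays lay above the NR4 arrays, and in 0 the reverse. The pro-apoptotic member Bcl2l11 (Bim) gave 0.29, 0.44 and 0.17 in 3 probe sets whose arrays did not overlap, and -0.12 and -0.02 in 2 whose arrays did. Antigen presentation genes had a median of 0.0137 over 59 probe sets. In 5 of the 59 (8.47%, against 3.64% of all probe sets) all NOD arrays lay above the NR4 arrays, and in 2 (3.39%, against 2.71%) below. Among the 5 was H2-Oa, a chain of the H2-O complex that restrains peptide loading, at 0.36 (SE 0.13, limma adjusted p = 1). Medians were 0.0184 over 36 probe sets of NF-kB subunits and inhibitors, 0.0177 over 32 of BAFF receptors, CD40 and TRAF adaptors, and 0.0470 over 69 of quiescence genes.

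Of the immune genes in the Idd9 and Idd11 part of chromosome 4, 31 were measured by 62 probe sets, with a median of 0.0706. Values ran from -1.05 to 1.88, and 10 of the 62 had an unadjusted p below 0.05, against 1.53% of all probe sets. In 7 (11.3%, against 3.64% of all probe sets) all NOD arrays lay above the NR4 arrays, and in 5 (8.06%, against 2.71%) below. With the replicate block 2 were called, and in the main fit 1, Padi2, against 0.0577% of all probe sets. Laptm5, a lysosomal protein that lowers surface levels of the antigen receptor, came next. Probe set 1426025_s_at read 0.34, 0.15 and 0.37 in NOD and -0.48, -0.46 and -0.35 in NR4, so the strains were apart, with a difference of 0.72 (SE 0.10, limma adjusted p = 0.052). Its other probe sets gave 0.58, 0.36, 0.21 and 0.09. Tnfrsf1b, the second receptor for tumour necrosis factor, gave 0.65 and 0.28, and the Src family kinase gene Fgr -0.67 and -0.14, none of them called.

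**Figure D4:**
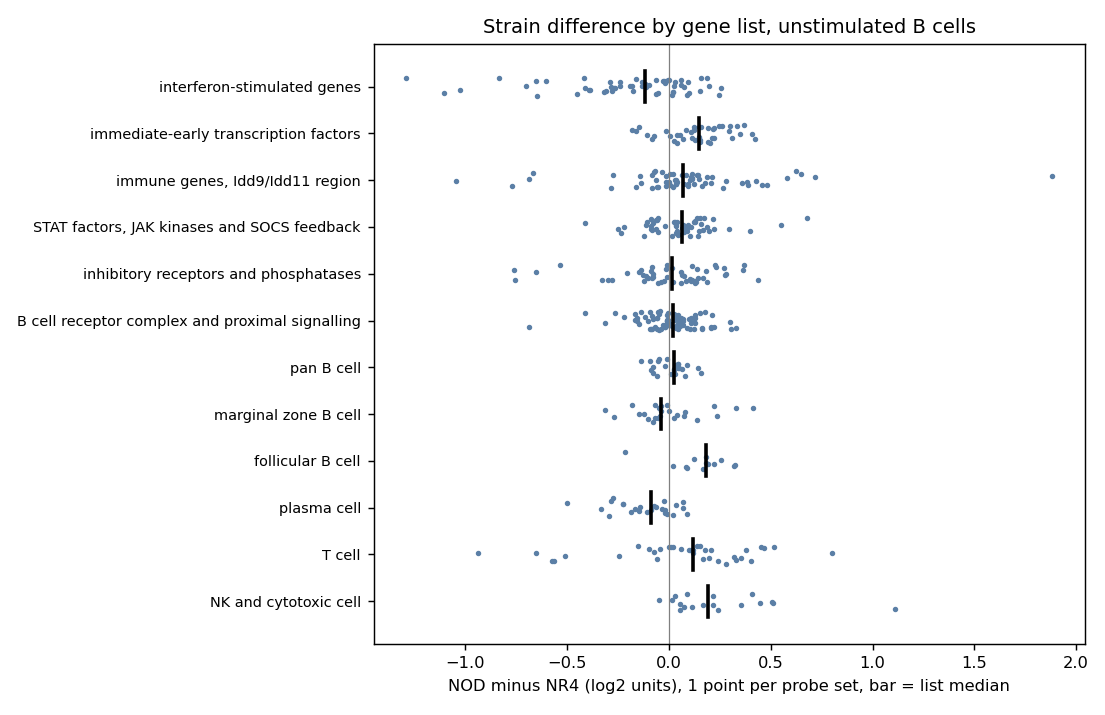
NOD minus NR4 (log2 units) of each probe set in 12 of the gene lists, with 1 point per probe set and a black bar at the list median. The interferon-stimulated genes reach to -1.29 on the side lower in NOD, and the pan B cell markers lie between -0.139 and 0.159.

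No marker of B cells or of their subsets was called. The 24 probe sets of pan B cell markers, such as Ms4a1 and Pax5, differed by -0.139 to 0.159, with a median of 0.0246. Medians of the B cell subsets were -0.0375 for marginal zone, 0.0101 for B-1, -0.0127 for transitional and 0.181 for follicular cells, the last with 12 of 13 probe sets above 0. Germinal centre markers had a median of 0.192 with 11 of 11 above 0, and plasma cell markers -0.0871 with 5 of 25 above 0. In 5 of the 25 plasma cell probe sets (20%, against 2.71% of all probe sets) all NOD arrays lay below the NR4 arrays, and in 1 (4%, against 3.64%) above. An unadjusted p below 0.05 was found in 3 of the 25. Within the plasma cell list, Xbp1, which drives the secretory programme, gave -0.28, -0.28, -0.29 and -0.23 in 4 probe sets, each with a limma adjusted p = 1. The arrays overlapped in the last of the 4 and not in the others. Immunoglobulin segments had a median of -0.146 over 38 probe sets, of which 4 had an unadjusted p below 0.05. In 5 of the 38 (13.2%, against 2.71% of all probe sets) all NOD arrays lay below the NR4 arrays, and in 1 (2.63%, against 3.64%) above. A probe set of Ighm in that list (1427870_x_at) read -1.58, -0.08 and -0.32 in NOD and 0.30, -0.09 and 0.28 in NR4, where NOD replicate 1 alone was far below the others.

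Over all 14 marker lists, limma called none of the 318 probe sets, against 0.0577% of all probe sets. Of the 318, 15 had an unadjusted p below 0.05 (4.72%, against 1.53% of all probe sets). For T cells, which negative depletion should remove, the median was 0.12 over 36 probe sets, with 25 above 0 (69.4%, against 52.9% of all probe sets). The members named next lie mostly on the smaller side, below 0. Values of both signs occurred in that list, with Cd8a at -0.94 to -0.045 over 5 probe sets, Cd8b1 at -0.65 and Cd4 at -0.56 and -0.58 but Cd3g at 0.80, each with a limma adjusted p = 1. Medians were 0.0179 for monocytes and macrophages, -0.0128 for neutrophils, -0.0450 for dendritic cells, 0.0503 for erythroid cells and platelets and -0.0385 for stromal and endothelial cells. NK and cytotoxic cell markers were above 0 in 17 of 18 probe sets, with a median of 0.193. The array means of this list were 0.251, 0.0677 and -0.0994 in NOD and 0.25, -0.11 and -0.679 in NR4, so NR4 replicate 3 was lowest and the others overlapped. Gzma, a granule protease of these cells, read 0.19, 0.44 and 0.00060 in NOD and 0, -0.59 and -2.10 in NR4 (difference 1.11, limma adjusted p = 1). The part that such cells have in the differences above was not tested.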

How the data were processed

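RNA of splenic B cells was labelled with biotin and hybridized to Affymetrix arrays. The authors deposited log2 values computed by RMA according to the submitters' processing notes; no version is stated there. Each of the 45101 probe sets had a median of 0 over the 11 arrays, so the deposited values had also been centred. The file gives no base for the log, and 2 was assumed. Levels, detection calls and depth are therefore unknown, and precision is limited by how many arrays there are. Identical values were found in 0 pairs of arrays.

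Groups and replicate numbers came from the sample titles. All 11 arrays entered a linear model of 4 group means, fitted with limma 3.58.1 in R 4.3.3 (lmFit and eBayes, 7 residual and 2.9 prior degrees of freedom). The contrast was NOD minus NR4 in unstimulated cells, two-sided, with Benjamini-Hochberg adjustment over 45037 probe sets and a threshold of 0.05. The steps were tested on simulated data. Unstimulated arrays of the same number deviated together (r of 0.60, 0.36 and 0.56, and -0.027 or less for unlike numbers). The numbers were therefore taken as pairs in the block alternatives, while the main fit, with its SEs and adjusted p values, leaves the pairing out. The pairing rests on the data, since the labels do not say that a number marks a lot.

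In the platform annotation 34945 probe sets had 1 symbol, 932 several and 9160 none listed. The RefSeq table of GRCm38.p6 (99.4% found by Entrez identifier) served for chromosomes, gene order, overlaps and promoters, as the file names no build. All called probe sets and the other probe sets of their genes are named. Also named are up to 10 each way called under the block and up to 8 each way whose arrays did not overlap, some passed over. Of each list a few members are named, mostly of small p but not strictly in that order. The comparison and the lists were chosen with earlier results of these data known. Alternatives were other arrays, the block, normalization, gene medians, an SD filter, robust moderation and leaving out arrays.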

Additional observations from a re-analysis of the deposited data

How the results depend on the processing

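With the 6 unstimulated arrays alone, 17 probe sets were called, 8 of them on chromosome 4, against 26 and 15. Gene medians gave 11 and 9, over 18193 genes. Leaving out 1 unstimulated array gave 14 to 21 calls, 6 to 11 on chromosome 4. The replicate block (33 and 17) lost 2 calls, Zfp691 and Lrp8, added 9 and changed no other call named here. The block on 6 arrays (25 and 12), quantile normalization (31 and 17), leaving out the lower 50% by SD (27 and 13), robust moderation (26 and 15) and leaving out NR4 anti-IgM replicate 1, whose control 3' minus 5' difference was 0.956 (22 and 11), stayed within 1.5 times of the main counts. All 26 called probe sets kept their direction under the 13 alternatives on probe sets, of which only quantile normalization could have turned a sign. The gene median turned the sign of Zfp991 1424784_at, to 0.26 (limma adjusted p = 1), because its probe sets oppose each other. Of 2371 values of named probe sets under the alternatives, 121 crossed the threshold and 1 reversed. Signal over background cannot be judged from centred values.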
